A study of Mus musculus with 32 samples.

Results

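The genes described here are 36 genes of glycolysis and glycogen metabolism in mouse skeletal muscle, chosen by name: the transporters, enzymes and regulators that a muscle fibre uses to take up glucose, store it as glycogen, split it to pyruvate and release lactate. The genes were chosen with earlier results of these data known. They are 36 of the 24952 genes of the deposited tables, and 35 of them were among the 13990 genes tested. Aldoc was the exception, with at most 12.6 TPM (a unit in which counts are divided by transcript length and scaled to the same sum in each library) in any library. The genes were placed in 6 groups by role, namely glucose and lactate transport, upper glycolysis, regulation and branches, lower glycolysis, glycogen breakdown, and glycogen synthesis and targeting.

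The samples were regions of the tibialis anterior (TA), a mostly fast-twitch muscle of the lower leg, cut from cross sections by laser-capture microdissection. Synaptic regions (NMJ), where the motor nerve meets the fibre, were found with α-bungarotoxin, a toxin that binds the acetylcholine receptor, and extra-synaptic regions (xNMJ) were cut away from the label. Many regions were pooled into each sample, and RNA was amplified with the SMART-Seq v4 kit before sequencing. All mice were male wild-type C57BL/6JRj animals, kept in single cages and fed the AIN93M diet, for longer at 30 months than at 10 months of age, so that age and time on the diet cannot be told apart. The groups were named 10m or 30m, for the age in months, followed by the region, with 8 libraries each and 32 in all. The labels do not say whether 2 libraries came from the same mouse, so p-values measure the spread between these libraries. Library totals ran from 4026648 to 16516788 counts. Totals and insert sizes differed between the regions. Median totals were 6062117 and 6790011 counts in 10m and 30m xNMJ, and 9605869 and 9825357 in 10m and 30m NMJ. Median insert sizes were 93.5 and 96 bases in 10m and 30m xNMJ, and 117.5 and 107 in 10m and 30m NMJ, where 10m NMJ replicate 8 had 52.

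Glycolysis splits glucose into pyruvate in the cytosol and yields ATP without oxygen. Fast muscle fibres draw on it, and on the glycogen they store, for short bursts of contraction, and they carry muscle isoforms of many of its enzymes. Glycogen phosphorylase frees glucose units from glycogen when phosphorylase kinase activates it, and glycogen synthase adds them back. The labelled tissue and regions were set against marker genes, whose lists were chosen with earlier results of these data known. Mylpf, Acta1 and other genes of muscle fibres were among the most abundant in every group, with summed medians of 79350 to 95440 TPM for 8 fibre genes. Myh4, the myosin of the fastest fibres, had group medians of 3037 to 3793 TPM, and Myh7, the myosin of slow fibres, had medians of 0.237 to 0.468 TPM. The synaptic list, led by Chrne, the adult acetylcholine receptor subunit, had summed medians of 1056 and 1071 TPM in 10m and 30m NMJ, against 14.7 and 18.5 TPM in 10m and 30m xNMJ. The test called 7 of the 8 synaptic genes higher in NMJ at each age. 1 library went partly against its label: 30m xNMJ replicate 5 had a synaptic sum of 158 TPM, the highest of its group, and results that change without it are given with both values.

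Together the 36 genes took a median of 3.16% of all TPM in xNMJ and 2.85% in NMJ of 10m mice, and 3.22% and 2.93% at 30 months. The ranges overlapped between all 4 groups. Aldoa, the muscle aldolase that splits fructose bisphosphate, was the most abundant gene of upper glycolysis, with group medians of 6006 to 6668 TPM. Gapdh, the dehydrogenase that opens lower glycolysis, had medians of 4196 to 5074 TPM. Eno3, the muscle enolase, and Pgam2, the muscle phosphoglycerate mutase, followed with medians of 3460.3 to 3988 TPM and 2905 to 3296 TPM, respectively. Phkg1, a gene of glycogen breakdown whose counts are uncertain (described with that step), had medians of 2185 to 6265 TPM and was second to Aldoa in both xNMJ groups. At the other end Slc2a1, Hk1, Pfkl and Aldoc, the forms best known outside muscle fibres, had medians under 3 TPM in every group. Levels therefore differed widely within the pathway, and lower glycolysis and upper glycolysis held most of the sum, with medians of 1.41% and 0.947% of TPM in 10m xNMJ.

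**Figure D1:**
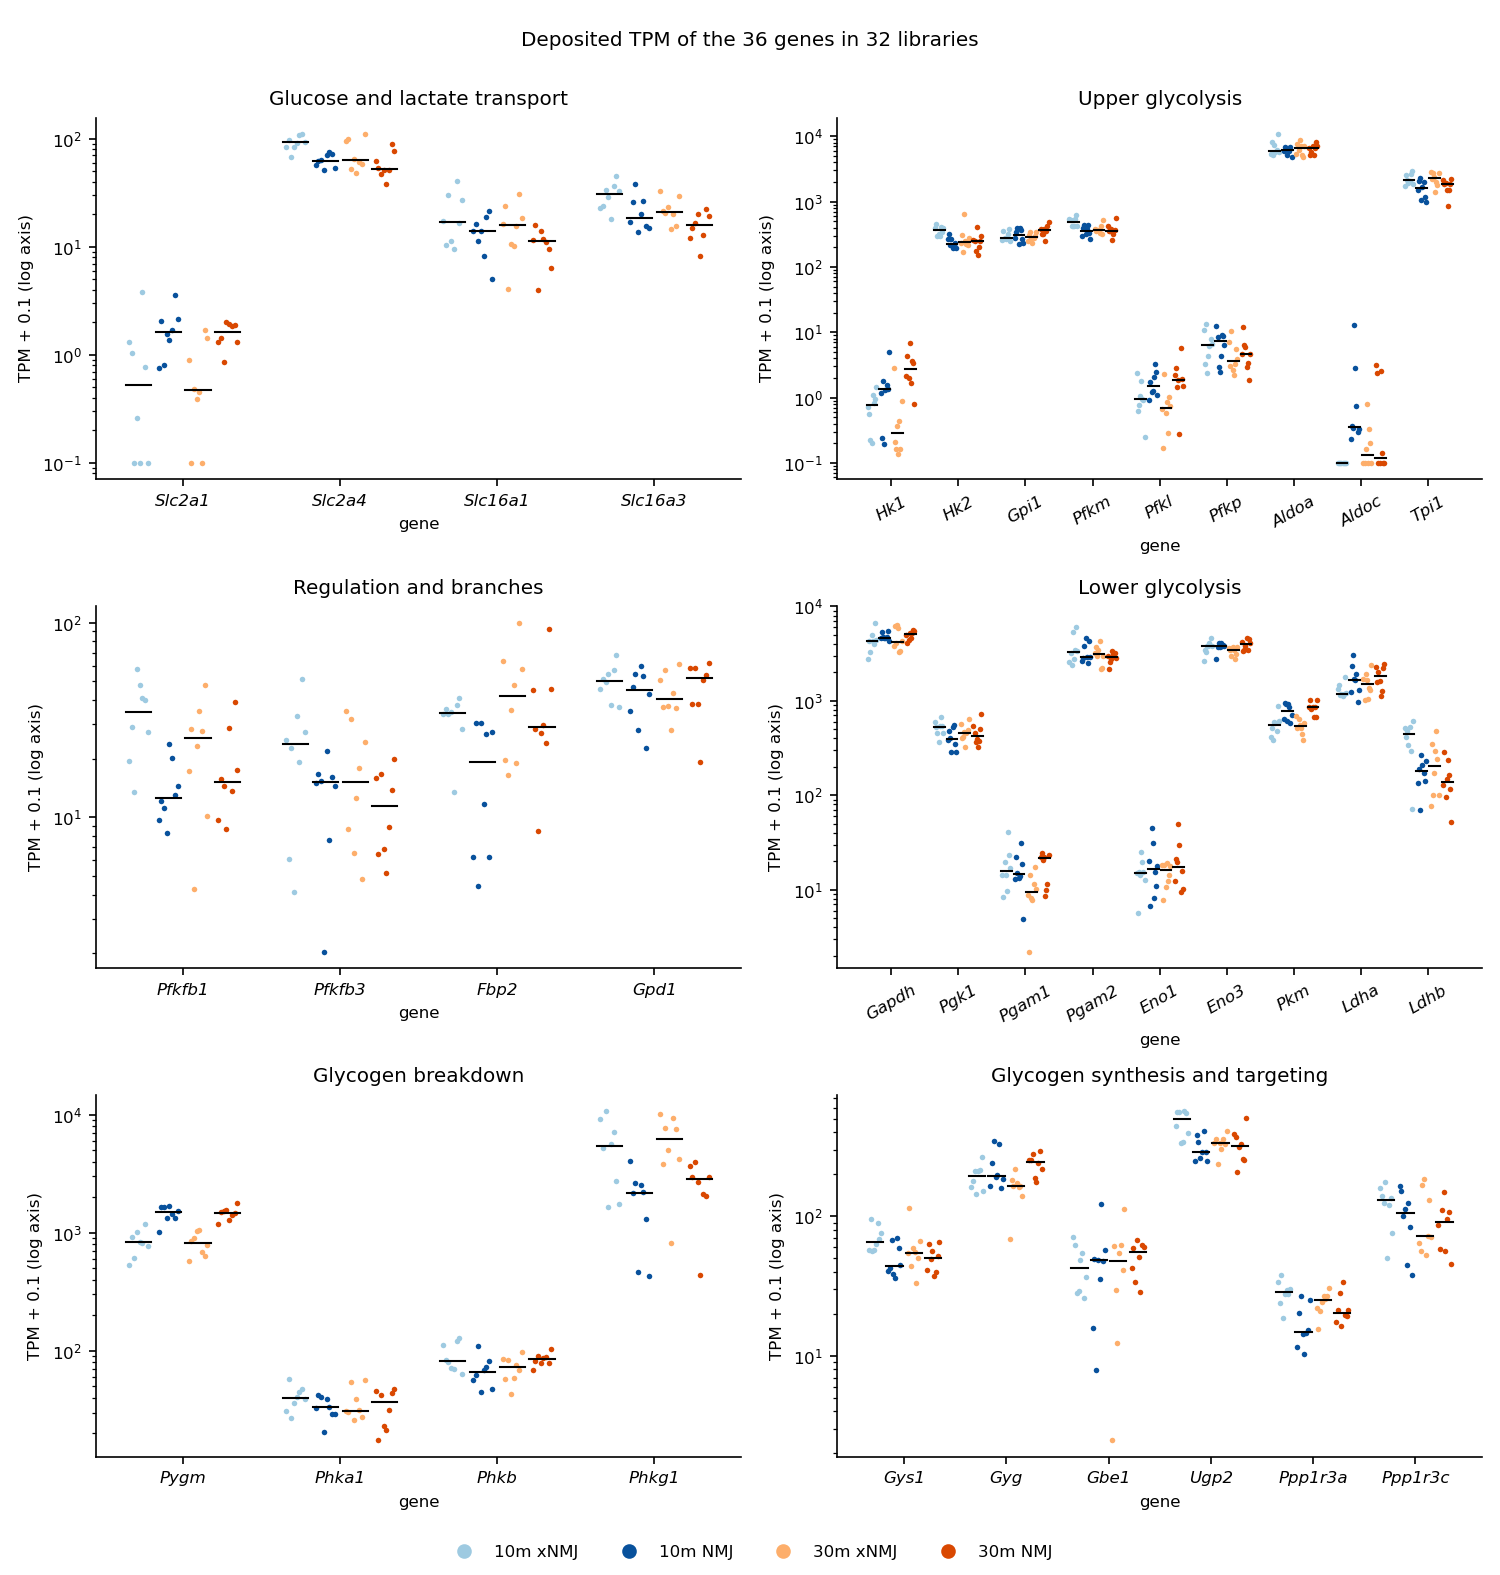
TPM + 0.1 on a log axis for the 36 genes, in a panel for each group of genes, with a point for each of the 32 libraries and a bar at each median of 8 libraries. Aldoa, Gapdh, Eno3, Pgam2 and Phkg1, whose counts are uncertain, have the highest medians in all 4 groups, while Slc2a1, Hk1, Pfkl and Aldoc lie near 0.

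Relative to the other genes of the same libraries, many of these genes were lower at the synapse. In 10m mice, 20 of the 35 tested genes were lower in NMJ than in xNMJ and 0 were higher (edgeR quasi-likelihood test, adjusted p under 0.05 over all 13990 genes). Of all genes tested, 5.05% were lower and 6.5% higher in that comparison. In 30m mice, 14 of 35 were lower and 0 higher, against 4.25% lower and 5% higher of all genes. At an unadjusted p under 0.05 the counts were 23 lower and 0 higher in 10m mice and 23 lower and 1 higher in 30m mice, where 1431 and 1321 of the 13990 genes were lower and 1761 and 1577 higher, or 22.8% and 20.7% in both directions. DESeq2 called 21 and 17 lower and 0 higher at the 2 ages. Of all 13990 genes it called 814 and 769 lower and 1228 and 942 higher, and the shares in percent given here are for edgeR. The median log2 fold change of the 35 genes was -0.75 in 10m mice and -0.63 in 30m mice, where that of all genes was 0.0036 and -0.014.

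These values rest on TMM scaling, which sets library totals so that most genes centre at 0, and whether single genes lie above or below 0 depends on it. The TMM factors had medians of 0.831 and 0.765 in 10m and 30m xNMJ and of 1.21 and 1.25 in 10m and 30m NMJ. With library totals alone, the median of all genes moved to 0.56 (log2) in 10m mice and 0.61 in 30m mice, 92.7% and 97.3% of all calls were higher in NMJ (56.3% and 54.1% with TMM), and 5 and 1 of the 35 genes were called lower while 2 and 4 were called higher. Of all 13990 genes, 210 and 75 were called lower with totals and 2667 and 2692 higher. "Lower" in what follows means lower by TMM, and so relative to most genes of the same libraries. The value with library totals, or with the fibre scaling described next where that turns a call or its sign, is given beside it. A value below 0 with totals does not mean that the call was kept. In 10m mice 18 of the 20 called genes stayed below 0 with totals and 5 kept their call, and in 30m mice 12 of 14 stayed below 0 and 1 kept its call. The scaling to fibre genes, chosen after the data were seen, uses Acta1, Ckm, Myh4, Myh1, Mylpf and Tnnt3. On it 1 gene (Phkg1) was called lower in 10m mice and 0 in 30m mice, and 6 and 8 were called higher: Gapdh, Gyg, Ldha, Pkm, Pygm and Slc2a1 in 10m mice, and Eno3, Gpi1, Gyg, Hk1, Pfkl, Pgam1, Pkm and Pygm in 30m mice. Of all 13990 genes, the fibre scaling called 143 and 29 lower and 4335 and 4188 higher. The median of all genes on it was 0.78 in 10m and 0.80 in 30m mice, and 29 and 28 of the 35 genes lay below that. A gene called higher with the fibre scaling can therefore lie below most genes.

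**Figure D2:**
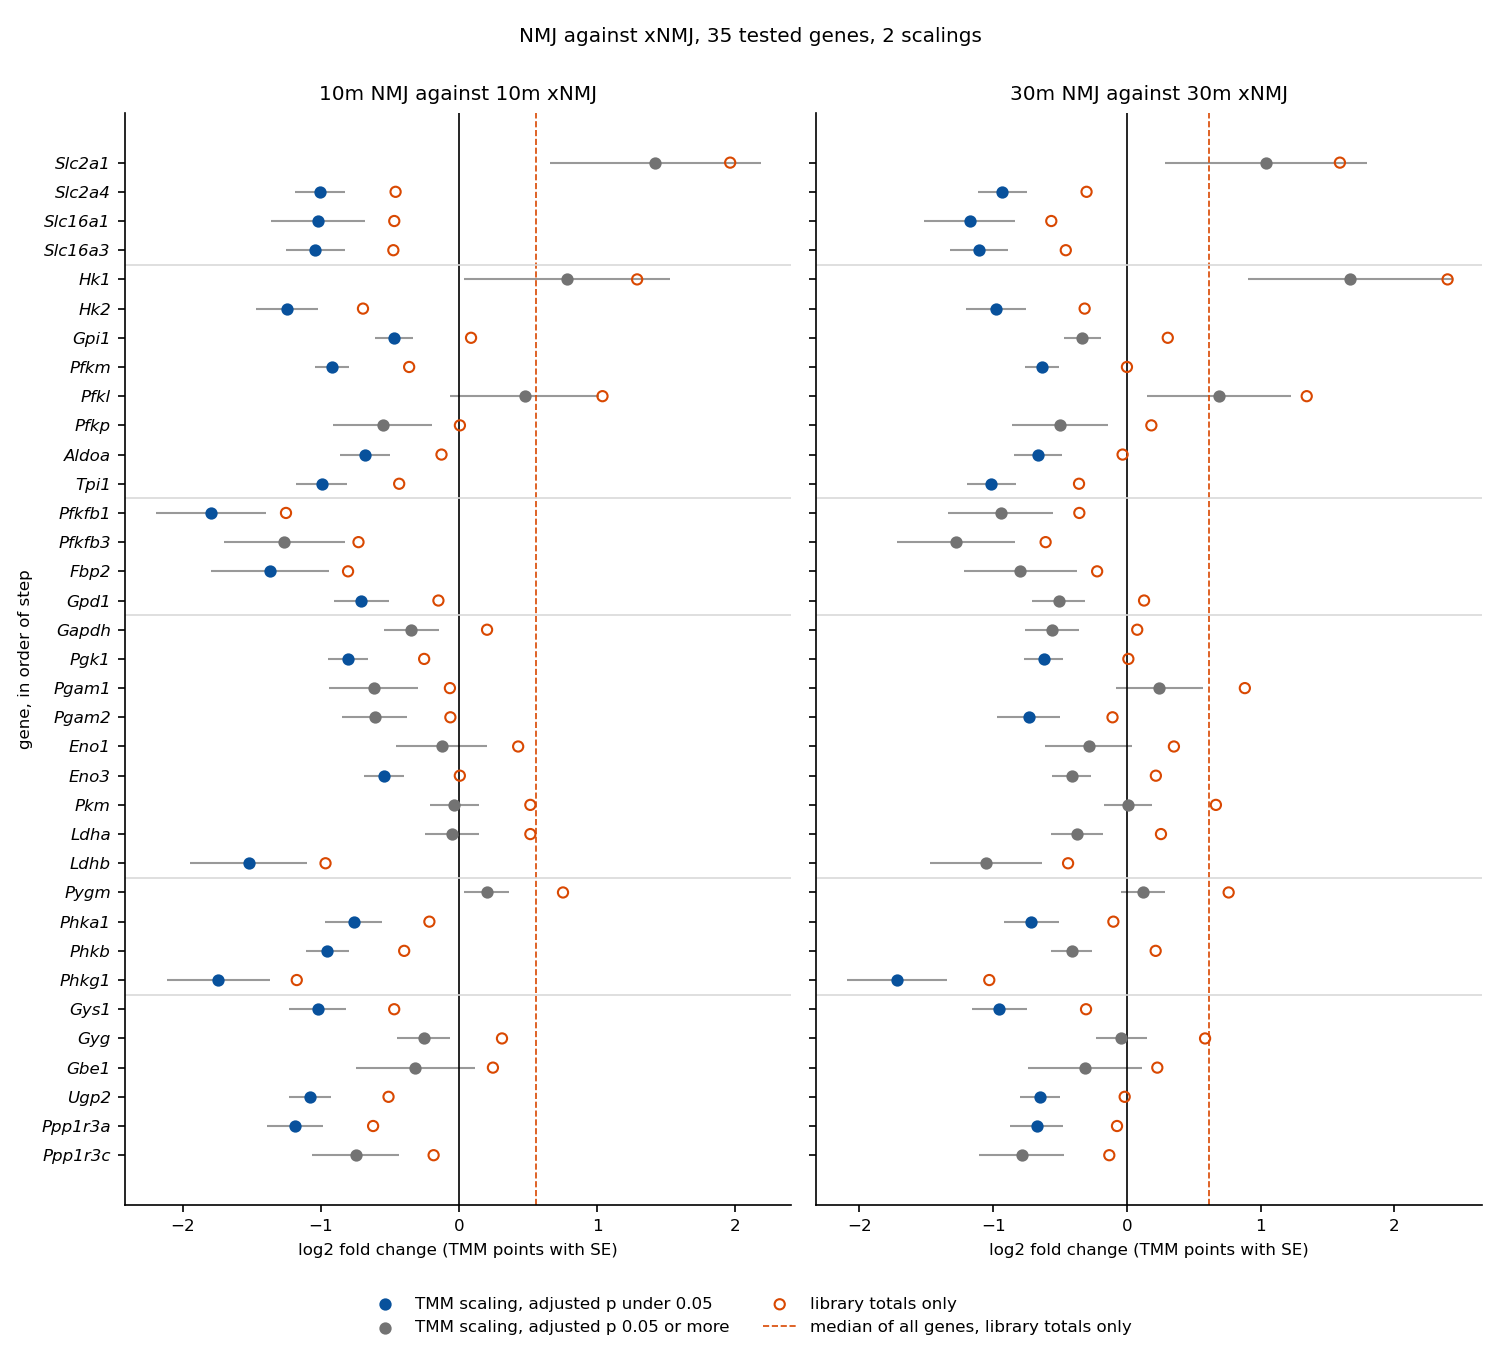
Log2 fold change of NMJ against xNMJ (edgeR) for the 35 tested genes in order of step, at 10 months (left) and 30 months (right): filled points with SE for TMM scaling (blue, adjusted p under 0.05), open points for library totals only, and a dashed line at the median of all genes with totals. The called genes, 20 at 10 months and 14 at 30 months, lie left of 0 by TMM, and 2 of each set are right of 0 by totals.

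Genes of muscle fibres and of other cells moved between the same groups, and their part in these results was not tested. Of 8 fibre genes, 4 were lower in 10m NMJ and 5 in 30m NMJ by the same test, with median log2 fold changes of -0.998 and -0.80 that became -0.45 and -0.18 with library totals. Ckm, the muscle creatine kinase, had -1.08 in 10m and -1.08 in 30m mice, and Acta1, skeletal actin, had -0.75 and -0.81. Genes of Schwann cells were higher in NMJ at both ages, among them S100b, with log2 fold changes of 7.32 and 4.95, and Sox10, a transcription factor of glia, with 5.58 and 6.00. Of 6 fibroblast genes, led by Dcn, 5 and 4 were higher, with summed medians of 72.1 and 811 TPM in 10m mice and 92.6 and 775 TPM in 30m mice. Of 5 macrophage genes, led by Cd68, 3 and 2 were higher, from 3.55 to 42.2 TPM and from 4.38 to 38.4 TPM. The 6 endothelial genes, led by Cdh5, summed to medians of 25.6 to 38.3 TPM with 0 higher and 0 and 1 lower. Red blood cell genes, led by Hba-a2, summed to medians of 3148 to 7834 TPM and reached 29580 TPM in 1 library of 30m xNMJ, with 0 of 5 called. Of the adipocyte list only Plin1 was abundant enough to test and was lower in NMJ at both ages, with Adipoq, Lep and Cidec at a median of 0 TPM in every group, and of the muscle stem cell list Sdc4 was higher and Pax7 was not called. In bulk regions like these, fewer cells of a type and less RNA per cell cannot be told apart.

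Glucose enters the fibre through Slc2a4 (GLUT4), the insulin- and contraction-responsive glucose transporter (ENSMUSG00000018566, chromosome 11, 69942539 to 69948188 on the minus strand, GRCm38). Its lowest, median and highest TPM over 8 libraries were 67.1, 92.6 and 109 in 10m xNMJ and 51.6, 62.6 and 75.3 in 10m NMJ. In 30m mice they were 48.5, 62.9 and 111 in xNMJ and 38, 52.2 and 89.4 in NMJ. The groups overlapped in TPM at both ages, whereas on TMM-scaled CPM (counts scaled for library size, on which the test rests) every 10m NMJ library lay below every 10m xNMJ library. The log2 fold change was -1.01 (SE 0.18, adjusted p = 0.00018) in 10m and -0.93 (SE 0.18, adjusted p = 0.00067) in 30m mice, and stayed below 0 with library totals (-0.46 and -0.30). Slc16a3 (MCT4) exports lactate from glycolytic fibres, and had 18.1, 30.7 and 45 TPM in 10m xNMJ and 13.7, 18.5 and 37.7 in 10m NMJ. At 30 months it had 14.5, 20.9 and 32.7 TPM in xNMJ and 8.12, 15.7 and 22.4 in NMJ. Its groups overlapped, with 7 of 8 NMJ libraries below the xNMJ median TPM at each age. Its log2 fold change was -1.04 (SE 0.21, adjusted p = 0.00091) in 10m and -1.11 (SE 0.22, adjusted p = 0.00065) in 30m mice, and -0.48 and -0.46 with totals. Slc16a1 (MCT1), a lactate carrier also used for uptake, was lower too, at -1.02 (SE 0.34, adjusted p = 0.044) and -1.18 (SE 0.34, adjusted p = 0.022), and at -0.47 and -0.57 with totals, although its 10m call was lost without 10m NMJ replicate 8 (-0.90, adjusted p = 0.093), with DESeq2 size factors in edgeR (-0.98, adjusted p = 0.062) and without a filter on low counts (adjusted p = 0.081). Slc2a1 (GLUT1), the glucose transporter of most other cells, lay under 4 TPM in each 10m library and was not called by TMM, with an adjusted p of 0.27 and 0.48 for log2 fold changes of 1.422 and 1.04. In 10m mice it was called higher in NMJ with the fibre scaling, at 2.20, and with limma on log2(TPM + 0.1), at 1.88.

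In upper glycolysis, glucose is phosphorylated and split into triose phosphates, and 5 of 8 tested genes were lower in 10m NMJ and 4 of 8 in 30m NMJ. Hk2, the hexokinase of muscle that traps glucose as glucose 6-phosphate, had 294, 369 and 448 TPM (lowest, median and highest) in 10m xNMJ and 193, 225 and 324 in 10m NMJ. In 30m mice it had 171, 241 and 635 TPM in xNMJ and 154, 252 and 406 in NMJ. All 8 10m NMJ libraries were below the xNMJ median TPM, but only 3 of 8 at 30 months. The TMM-based log2 fold changes were -1.25 (SE 0.23, adjusted p = 0.0002) and -0.98 (SE 0.22, adjusted p = 0.0034), and -0.70 and -0.32 with totals. In 30m xNMJ, replicate 4 had 635 TPM of Hk2 where the others had 171 to 305, and no fit without that library was run.

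Pfkm, the muscle phosphofructokinase that commits sugar to glycolysis, gave the smallest adjusted p of the 35 genes in 10m mice (ENSMUSG00000033065, chromosome 15, 98092589 to 98132451 on the plus strand, GRCm38). It had 423, 479 and 613 TPM in 10m xNMJ and 269, 355 and 444 in 10m NMJ. It had 318, 371 and 532 TPM in 30m xNMJ and 259, 360.3 and 570.4 in 30m NMJ. In 10m mice all 8 NMJ libraries were under the xNMJ median and on TMM-scaled CPM the groups were apart, whereas in 30m mice 5 of 8 were under it and the groups overlapped. The log2 fold change was -0.92 (SE 0.13, adjusted p = 2.9e-06) in 10m and -0.63 (SE 0.12, adjusted p = 0.00074) in 30m mice, while library totals gave -0.36 and 0.00014, so that the 30m value was no longer below 0.

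Tpi1, triose phosphate isomerase, which interconverts the products of aldolase, gave the smallest adjusted p of the 35 genes in 30m mice (ENSMUSG00000023456, chromosome 6, 124810586 to 124814296 on the minus strand, GRCm38). Its lowest, median and highest TPM were 1724, 2104 and 2901 in 10m xNMJ and 1000.5, 1599 and 2259 in 10m NMJ. The 30m values were 1379.6, 2304 and 2816 in xNMJ and 867, 1859 and 2201 in NMJ. It was the one gene of the 35 whose TMM-scaled CPM did not overlap between regions at either age, and all 8 30m NMJ libraries were under the xNMJ median in TPM as well. Its log2 fold changes were -0.99 (SE 0.18, adjusted p = 0.00026) and -1.01 (SE 0.18, adjusted p = 0.00029), and -0.43 and -0.36 with totals. Aldoa was lower, at -0.68 (SE 0.18, adjusted p = 0.0092) and -0.67 (SE 0.18, adjusted p = 0.012) by TMM, but the fibre scaling turned it to 0.15 and 0.18. In TPM it had 5225, 6006 and 10841 in 10m xNMJ and 4783, 6122 and 6952 in 10m NMJ, with 4 of 8 NMJ libraries below the xNMJ median. In 30m mice it had 4733, 6668 and 8799 TPM in xNMJ and 5145, 6599 and 8174 in NMJ, with 5 of 8 below. Gpi1, glucose phosphate isomerase, had -0.47 (SE 0.14, adjusted p = 0.021) in 10m mice, which became 0.087 with totals and was not called without a filter (adjusted p = 0.10, edgeR). At 30 months Gpi1 had -0.33 (SE 0.14, adjusted p = 0.14) by TMM, and was called higher with the fibre scaling at 0.49. The liver and platelet phosphofructokinases Pfkl and Pfkp and the hexokinase Hk1 were not called at either age by TMM, Hk1 with 0.78 (SE 0.74, adjusted p = 0.58) and 1.67 (SE 0.76, adjusted p = 0.19). In 30m xNMJ, replicate 1 had 2.7 TPM of Hk1 where the others had 0.036 to 0.787, and no fit without that library was run. In 30m mice Hk1 was called higher in NMJ with totals, with the fibre scaling and with limma on log2(TPM + 1), at 2.40, 2.42 and 1.37, and Pfkl with the latter pair, at 1.55 and 0.78. Hk1 was also called higher with insert size as a covariate and with the replicate block, at 2.98 and 2.87.

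**Figure D3:**
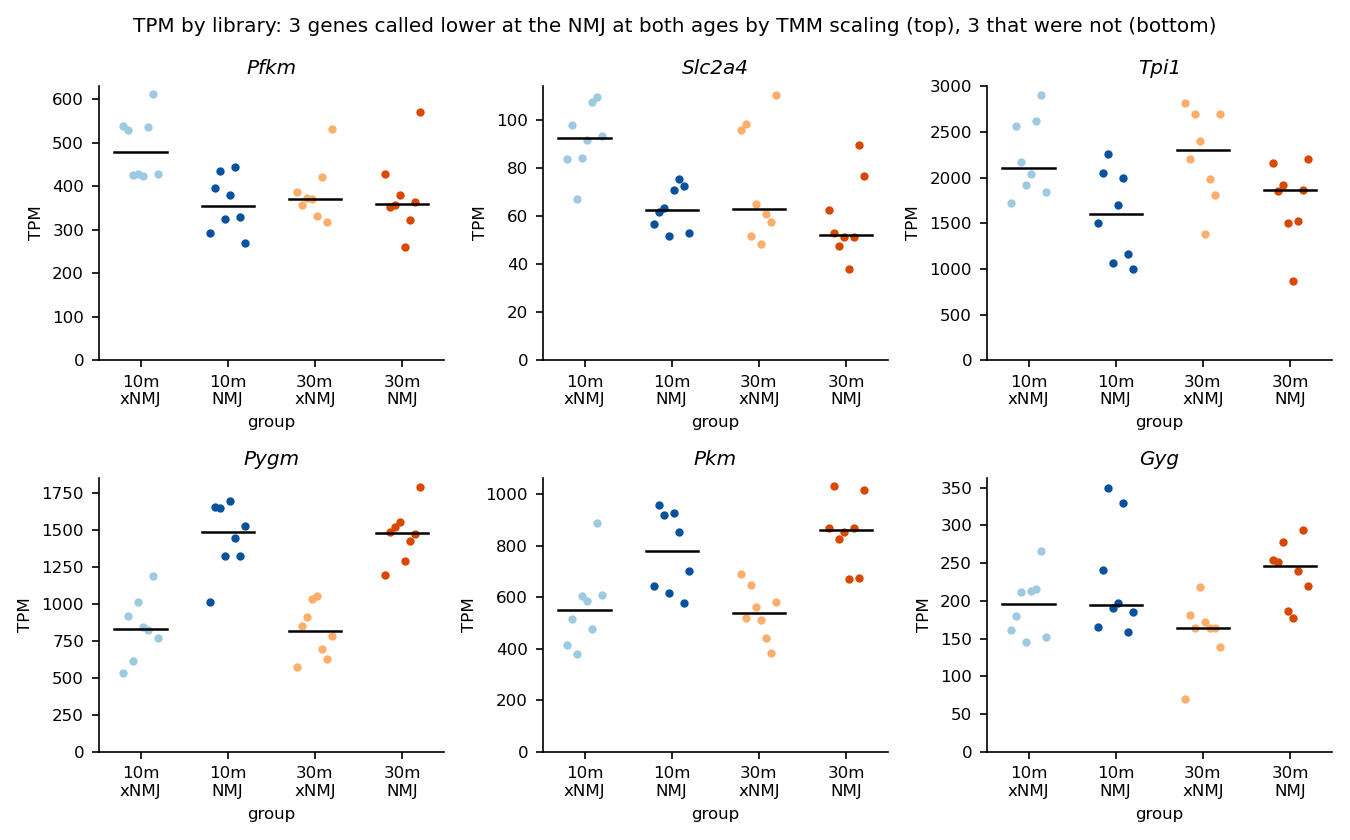
TPM of Pfkm, Slc2a4, Tpi1, Pygm, Pkm and Gyg in each of the 32 libraries, by group, with a bar at each group median and linear axes from 0. Pygm and Pkm have higher median TPM in NMJ than in xNMJ at both ages, in contrast to Slc2a4 and Tpi1, and were not called by TMM but called higher with library totals.

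Among the regulators and branches, 3 of 4 genes were lower in 10m NMJ and 0 of 4 in 30m NMJ (edgeR), but the difference between the ages was called for 0 of them. Pfkfb1, a kinase and phosphatase that sets fructose 2,6-bisphosphate, the activator of phosphofructokinase, had 13.3, 34.5 and 57.4 TPM in 10m xNMJ and 8.15, 12.4 and 23.8 in 10m NMJ. Its 30m values were 4.15, 25.3 and 47.4 TPM in xNMJ and 8.62, 15.1 and 38.9 in NMJ. All 8 10m NMJ libraries were below the xNMJ median, and 6 of 8 in 30m mice. The fold changes were -1.80 (SE 0.40, adjusted p = 0.0022) and -0.94 (SE 0.39, adjusted p = 0.14) on the log2 scale, and -1.25 and -0.36 with totals. Fbp2, the muscle fructose bisphosphatase, which runs against phosphofructokinase, had -1.37 (SE 0.43, adjusted p = 0.03) and -0.80 (SE 0.42, adjusted p = 0.29), and -0.80 and -0.22 with totals, the 10m call being lost with insert size as a covariate (-1.30, adjusted p = 0.076, edgeR) and without a filter (-1.30, adjusted p = 0.053). Gpd1, which turns triose phosphate to glycerol phosphate, had 36.8, 50.3 and 68.2 TPM in 10m xNMJ, 22.6, 44.8 and 60 in 10m NMJ, 28, 40.2 and 61.5 in 30m xNMJ and 19, 51.9 and 61.9 in 30m NMJ, so that all groups overlapped. Its log2 fold changes were -0.71 (SE 0.20, adjusted p = 0.014) and -0.51 (SE 0.20, adjusted p = 0.11), with 0.11 in 10m mice under the fibre scaling, and the 10m call was lost without a filter (adjusted p = 0.056). Pfkfb3, a second such kinase, missed the threshold at both ages, at -1.26 (SE 0.44, adjusted p = 0.058) and -1.28 (SE 0.44, adjusted p = 0.065).

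Lower glycolysis, which leads from triose phosphate to lactate, had 3 of 9 genes lower in 10m NMJ and 2 of 9 in 30m NMJ. Pgk1, phosphoglycerate kinase, which makes the first ATP of the pathway, had 368, 533 and 666 TPM in 10m xNMJ and 284, 395 and 557 in 10m NMJ (ENSMUSG00000062070, chromosome X, 106187100 to 106203699 on the plus strand, GRCm38). In 30m mice it had 321, 462 and 649 TPM in xNMJ and 324, 424 and 732 in NMJ. In 10m mice 7 of 8 NMJ libraries were below the xNMJ median TPM, and 5 of 8 in 30m mice. It was lower, at -0.81 (SE 0.14, adjusted p = 0.00016) and -0.62 (SE 0.14, adjusted p = 0.0036), with TMM, and had -0.25 and 0.011 with totals, the second on the other side of 0. Eno3 had -0.55 (SE 0.15, adjusted p = 0.0099) in 10m mice, which was 0.0054 with totals and was not called without a filter (adjusted p = 0.051, edgeR). At 30 months Eno3 had -0.41 (SE 0.15, adjusted p = 0.07) by TMM, and was called higher with the fibre scaling at 0.41. Pgam2 had -0.61 (SE 0.24, adjusted p = 0.093) and -0.74 (SE 0.24, adjusted p = 0.043), where the 30m call was lost without 30m xNMJ replicate 5 (-0.62, adjusted p = 0.093) and without a filter (adjusted p = 0.091), and the value turned to 0.11 under the fibre scaling.

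Of the other 6 genes of lower glycolysis, Gapdh, Pkm, Ldha, Eno1 and Pgam1 were not called by TMM at either age, and Ldhb was called in 10m mice. Gapdh had 2799, 4341 and 6723 TPM in 10m xNMJ and 4309.5, 4678 and 5525 in 10m NMJ, with 1 of 8 NMJ libraries below the xNMJ median, and a log2 fold change of -0.35 (SE 0.20, adjusted p = 0.31). Its 30m values were 3317, 4196 and 6359 TPM in xNMJ and 4086, 5074 and 5559.8 in NMJ, again with 1 of 8 below, and -0.56 (SE 0.20, adjusted p = 0.074). With the fibre scaling Gapdh was called higher in 10m NMJ at 0.49, and Pgam1 in 30m NMJ at 1.05. Pkm, pyruvate kinase, which makes the last ATP and pyruvate, had 381, 549.5 and 887 TPM in 10m xNMJ and 575, 778 and 957 in 10m NMJ. It had 384, 540.1 and 689.7 TPM in 30m xNMJ and 669.7, 859 and 1032 in 30m NMJ. No NMJ library was below the xNMJ median TPM of Pkm at either age, while its TMM-based values were -0.035 (SE 0.18, adjusted p = 0.94) and 0.0076 (SE 0.18, adjusted p = 0.99) and its values with totals were 0.52 and 0.67, both called. Ldha, the main lactate dehydrogenase subunit of glycolytic muscle, had -0.051 (SE 0.19, adjusted p = 0.92) and -0.37 (SE 0.19, adjusted p = 0.28) by TMM, and was called higher in 10m mice with the fibre scaling at 0.79. Ldhb, the subunit typical of oxidative tissue, was lower in 10m mice at -1.52 (SE 0.42, adjusted p = 0.014), and had -1.05 (SE 0.42, adjusted p = 0.12) in 30m mice, with -0.97 and -0.44 by totals.

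Of 9 pairs of related genes, the lactate dehydrogenases and the lactate carriers varied among libraries in their makeup. Ldha made up a median of 74.9% of Ldha and Ldhb TPM in xNMJ and 89.5% in NMJ of 10m mice, and 87.6% and 93.2% at 30 months. Single libraries ran from 66.4% to 97.9%, and all groups overlapped. Ldhb itself had 72, 446 and 605 TPM in 10m xNMJ, 70.5, 179.8 and 269 in 10m NMJ, 77.2, 205 and 478 in 30m xNMJ and 52.5, 138 and 289 in 30m NMJ. The lactate carriers were shared more evenly, Slc16a3 making up group medians of 56.6% to 61.3% of the pair. In the other 7 pairs the muscle form (Hk2, Pfkm against Pfkl, Pfkm against Pfkp, Aldoa, Pgam2, Eno3 and Slc2a4) was above 95% of the pair in each of the 32 libraries.

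**Figure D4:**
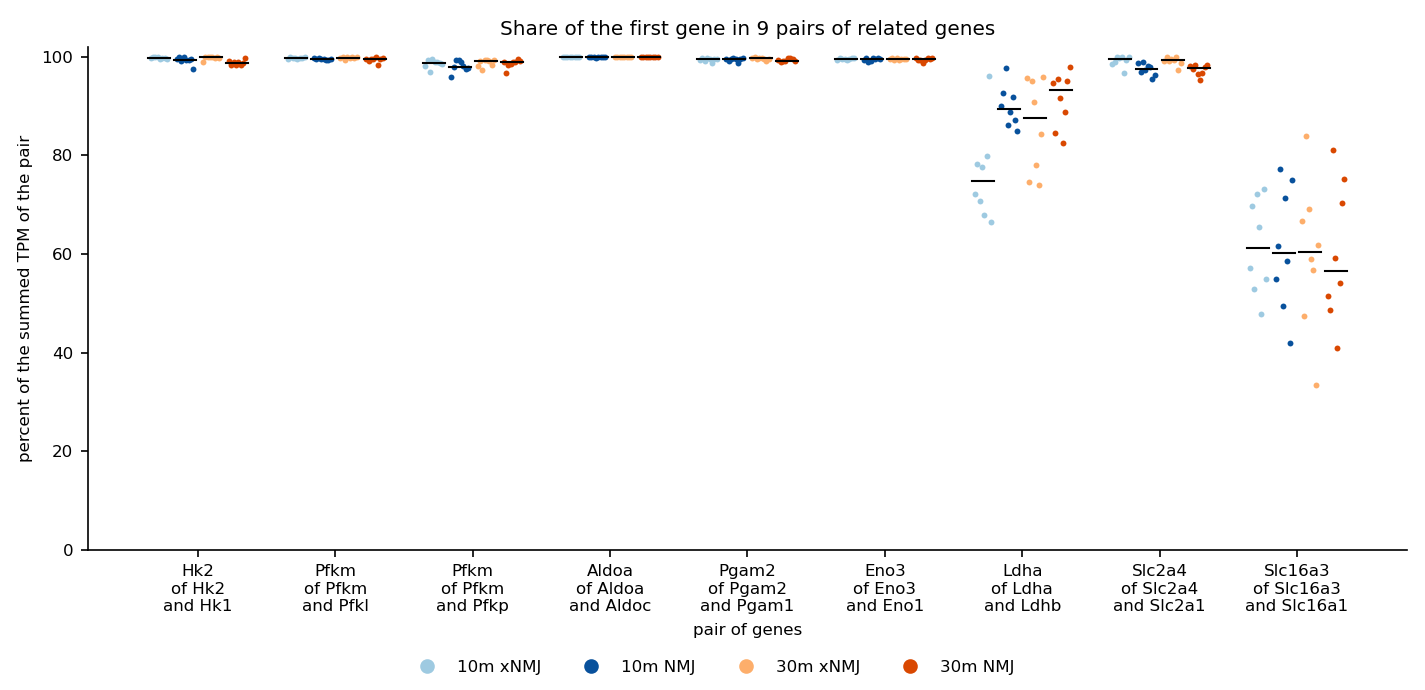
Share of the first named gene in the summed TPM of each of 9 pairs, in percent, with a point for each of the 32 libraries by group and a bar at each median. The muscle form exceeds 95% in 7 pairs, whereas Ldha ranges from 66.4% to 97.9% and Slc16a3 from 33.5% to 83.9%.

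In glycogen breakdown, 3 of 4 genes were lower in 10m NMJ and 2 of 4 in 30m NMJ, all of them subunits of phosphorylase kinase, but not the phosphorylase. Pygm, the muscle glycogen phosphorylase, had 535, 831 and 1188 TPM in 10m xNMJ and 1009.5, 1488 and 1693 in 10m NMJ (ENSMUSG00000032648, chromosome 19, 6384399 to 6398459 on the plus strand, GRCm38). In 30m mice it had 572, 818 and 1051 TPM in xNMJ and 1195, 1479 and 1791 in NMJ. Every 30m NMJ library was above every 30m xNMJ library in TPM, and in 10m mice the groups overlapped with no NMJ library below the xNMJ median. By TMM the difference was not called, at 0.20 (SE 0.16, adjusted p = 0.51) and 0.12 (SE 0.16, adjusted p = 0.75), and with totals it was called higher at 0.75 and 0.76. Phkb, the β subunit that scaffolds the kinase, had 63.4, 81.8 and 128 TPM in 10m xNMJ and 44.3, 65.4 and 110 in 10m NMJ. Its 30m values were 42.8, 72.3 and 98.1 in xNMJ and 68.3, 84.6 and 103 in NMJ. It was lower in 10m mice at -0.95 (SE 0.16, adjusted p = 4.9e-05) and not called in 30m mice at -0.41 (SE 0.16, adjusted p = 0.094), and had -0.40 and 0.21 with totals. The test of the difference between ages gave an unadjusted p of 0.019 and an adjusted p of 0.84 for Phkb (edgeR interaction). Phka1, the muscle α subunit that carries regulatory sites, had -0.76 (SE 0.21, adjusted p = 0.011) and -0.71 (SE 0.21, adjusted p = 0.022), and turned to 0.045 and 0.087 under the fibre scaling. Its 30m call was lost when only the groups compared were fitted (-0.72, adjusted p = 0.070, edgeR) and without a filter (-0.66, adjusted p = 0.070).

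Phkg1, the catalytic γ subunit of muscle, had the highest TPM of this group, but its counts are uncertain. It had 1659, 5447 and 10643 TPM in 10m xNMJ and 431, 2185 and 4052 in 10m NMJ. It had 825, 6265 and 10204 TPM in 30m xNMJ and 441, 2824 and 3994 in 30m NMJ. All 8 NMJ libraries were under the xNMJ median at each age, and the log2 fold changes were -1.74 (SE 0.38, adjusted p = 0.0015) and -1.72 (SE 0.38, adjusted p = 0.0021), with -1.18 and -1.03 by totals, although the groups overlapped and the 10m call was lost with insert size as a covariate (-1.41, adjusted p = 0.085). However, 2 genes of other names, Tbata and AA465934, ran in near-constant ratio with it: over all 32 libraries its TPM was 0.492 to 0.715 times that of Tbata and 0.731 to 1.05 times that of AA465934. Their log2 fold changes were -1.98 and -1.98 in 10m mice and -1.89 and -1.89 in 30m mice. Among the annotated transcripts, Phkg1 shares 4 of the 2532 distinct 31-base words of Tbata and 2 of the 757 of AA465934, and reads that fit several transcripts were divided between them when the tables were made. Among protein-coding transcripts of support levels 1 to 3, 25.6% of the 2344 words of Phkg1 occur in other genes, 600 of them in Sumf2 and some in 279 genes in all. Whether these values count Phkg1 alone cannot be told from the tables. Without it the genes took medians of 2.58% of TPM in xNMJ and 2.65% in NMJ of 10m mice, and 2.61% and 2.66% at 30 months. Glycogen breakdown without Phkg1 held 0.097% and 0.158% of TPM in 10m xNMJ and NMJ and 0.094% and 0.159% in 30m xNMJ and NMJ.

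In glycogen synthesis and targeting, 3 of 6 genes were lower at each age, and they were Ugp2, Gys1 and Ppp1r3a both times. Ugp2, which makes UDP-glucose, the donor for glycogen, had 333, 495 and 566 TPM in 10m xNMJ and 248, 289 and 407 in 10m NMJ (ENSMUSG00000001891, chromosome 11, 21321138 to 21371201 on the minus strand, GRCm38). The 30m values were 239, 337 and 407 TPM in xNMJ and 207, 321 and 509.5 in NMJ. All 8 10m NMJ libraries were under the xNMJ median and 5 of 8 in 30m mice. It had -1.08 (SE 0.15, adjusted p = 5.2e-06) and -0.65 (SE 0.15, adjusted p = 0.0038), and -0.51 and -0.017 with totals, but 0.17 in 30m mice under the fibre scaling. Gys1, the muscle glycogen synthase, had 56.5, 65.7 and 95.3 TPM in 10m xNMJ and 35.8, 43.7 and 70.5 in 10m NMJ. Its 30m values were 33.2, 55 and 115 in xNMJ and 37, 50.6 and 65 in NMJ. TMM-scaled CPM kept the 10m groups apart but TPM did not, and the log2 fold changes were -1.02 (SE 0.21, adjusted p = 0.00071) and -0.95 (SE 0.21, adjusted p = 0.0019), with -0.47 and -0.31 by totals. By sequence, 6.82% of the 31-base words of Gys1 are shared with Ruvbl2.

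Ppp1r3a tethers protein phosphatase 1 to glycogen in muscle, where the phosphatase activates the synthase. It had 18.6, 28.7 and 37.8 TPM in 10m xNMJ and 10.2, 14.8 and 26.7 in 10m NMJ. In 30m mice it had 15.4, 24.9 and 30.5 TPM in xNMJ and 16.4, 20.4 and 33.7 in NMJ. The 10m groups were apart on TMM-scaled CPM only, and 6 of 8 30m NMJ libraries were under the xNMJ median TPM. Fold changes were -1.19 (SE 0.20, adjusted p = 7.9e-05) and -0.68 (SE 0.20, adjusted p = 0.025) on the log2 scale, -0.62 and -0.074 with totals, and 0.13 in 30m mice under the fibre scaling. The 30m call was lost without a filter (-0.61, adjusted p = 0.076, edgeR). Gyg, glycogenin, which primes a new glycogen particle, was not called, with -0.26 (SE 0.19, adjusted p = 0.47) and -0.043 (SE 0.19, adjusted p = 0.93), but with totals it was called higher in 30m mice at 0.58, and with the fibre scaling at both ages at 0.55 and 0.81. Gbe1, the branching enzyme, had -0.32 (SE 0.43, adjusted p = 0.72) and -0.31 (SE 0.43, adjusted p = 0.75), and Ppp1r3c, another glycogen-targeting subunit of the phosphatase, had -0.75 (SE 0.32, adjusted p = 0.13) and -0.79 (SE 0.32, adjusted p = 0.13).

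Across the steps, 13 genes were lower in NMJ at both ages with TMM: Slc2a4, Slc16a1, Slc16a3, Hk2, Pfkm, Aldoa, Tpi1, Pgk1, Phka1, Phkg1, Gys1, Ugp2 and Ppp1r3a. A further 7 passed in 10m mice alone (Gpi1, Pfkfb1, Fbp2, Gpd1, Eno3, Ldhb and Phkb), and 1 in 30m mice alone (Pgam2). The remaining 14 passed at neither age. The difference between ages was itself tested by the interaction of age and region, which called 0 of these genes, so the 7 and the 1 are not shown to differ between ages. On TMM-scaled CPM the groups did not overlap for 8 of the 20 genes called in 10m mice (Slc2a4, Hk2, Pfkm, Tpi1, Pgk1, Gys1, Ugp2 and Ppp1r3a) and for 1 of the 14 called in 30m mice (Tpi1). Every NMJ library was below every xNMJ library in 22.9% of the 35 tested members in 10m mice and in 2.86% in 30m mice. The shares of all genes tested were 1.19% and 0.5%, beside the 5.05% and 4.25% of all genes called lower. On TPM all of the called genes overlapped.

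A wider list of 40 other genes of glycolysis, glycogen and the adjoining sugar pathways gave 29 tested genes of 37 in the table, with 3 of 29 (10.3%) lower and 0 higher in NMJ at each age and median log2 fold changes of 0.09 and -0.11. The called genes were the same at both ages, and 2 of them are described. Bsg, the chaperone that carries lactate transporters to the membrane, had -0.95 (SE 0.15, adjusted p = 4.4e-05) and -0.75 (SE 0.15, adjusted p = 0.0011), and -0.40 and -0.12 with totals, and was above 0 (0.074) in 30m mice under the fibre scaling. Pgm2, which interconverts glucose 1-phosphate and glucose 6-phosphate, had -0.94 (SE 0.17, adjusted p = 0.00026) and -1.09 (SE 0.17, adjusted p = 5.5e-05), and -0.39 and -0.46 with totals.

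The promoters of 4 genes are shown because they set 3 genes that were called beside one that was not: Hk2, Pgk1 and Ppp1r3a, lower at both ages by TMM (Pgk1 with totals and Ppp1r3a with the fibre scaling turned above 0 in 30m mice), and Pygm, not called by TMM but called higher at both ages with totals, the fibre scaling and limma on log2(TPM + 1). They are the 250 bases before the annotated start, 5′ to 3′ on the gene's strand, from RefSeq, GRCm38.p6. Capitals mark the E-box, CANNTG, which is its own reverse complement and is bound by myogenic and other factors, and the core of the hypoxia response element, ACGTG, on either strand (CACGT is its reverse complement). In none of the 4 did an E-box overlap a core.
Hk2, chr6:82774455-82774704, minus strand: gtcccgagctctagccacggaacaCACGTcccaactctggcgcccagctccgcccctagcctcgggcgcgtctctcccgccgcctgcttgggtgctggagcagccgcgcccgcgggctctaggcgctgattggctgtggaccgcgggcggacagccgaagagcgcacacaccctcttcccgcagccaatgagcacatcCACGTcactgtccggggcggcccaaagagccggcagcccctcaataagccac
Pgk1, chrX:106186850-106187099, plus strand: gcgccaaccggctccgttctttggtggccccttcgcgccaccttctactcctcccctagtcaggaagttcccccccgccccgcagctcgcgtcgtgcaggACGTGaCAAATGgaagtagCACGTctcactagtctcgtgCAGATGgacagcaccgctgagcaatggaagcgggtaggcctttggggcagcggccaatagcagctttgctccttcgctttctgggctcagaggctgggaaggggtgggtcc
Ppp1r3a, chr6:14755275-14755524, minus strand: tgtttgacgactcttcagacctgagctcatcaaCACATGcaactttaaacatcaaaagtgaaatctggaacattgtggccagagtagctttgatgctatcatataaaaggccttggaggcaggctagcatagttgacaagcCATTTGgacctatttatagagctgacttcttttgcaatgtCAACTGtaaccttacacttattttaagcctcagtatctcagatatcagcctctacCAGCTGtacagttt
Pygm, chr19:6384158-6384407, plus strand: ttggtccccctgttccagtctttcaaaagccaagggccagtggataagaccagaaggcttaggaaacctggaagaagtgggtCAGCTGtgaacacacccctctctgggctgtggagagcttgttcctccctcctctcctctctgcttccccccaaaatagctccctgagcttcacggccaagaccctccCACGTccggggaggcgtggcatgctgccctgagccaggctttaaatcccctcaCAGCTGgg
Hk2 held 2 cores and 0 E-boxes, Pgk1 2 of each, Ppp1r3a 4 E-boxes and 0 cores, and Pygm 2 E-boxes and 1 core. Over the whole 300-base windows of the RefSeq table (250 before and 50 after the start), which held 34 of the 36 genes but not Gpd1 and Slc2a4, ACGTG was found on either strand for 19 genes (55.9%), against 21.8% of all 27025 genes in the table. It was found for 58.3% of the 12 genes lower at both ages that have an entry and for 71.4% of the 14 called at neither age. CANNTG was found for 79.4% against 75% of all genes, TATAAA for 8.82% against 15.7%, CATTCC (M-CAT) for 14.7% against 16.6%, and CCGGAA (the N-box core of synaptic genes) for 20.6% against 16.7%. These matches describe letters in a window and do not show a bound site.

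With age, none of the 35 genes was called, in either region. In NMJ, edgeR called 0 of the 35 genes in 30m against 10m mice and 0% of all genes, with 2 of 35 (5.71%) at an unadjusted p under 0.05, against 2.66% of all genes. In xNMJ it called 0 members, where 0.0357% of all genes were higher and 0.00715% lower, with 4 of 35 (11.4%) at an unadjusted p under 0.05, against 9.45% of all genes. DESeq2 and limma also called 0 members in both. The median log2 fold change of the 35 genes was -0.0034 in NMJ and -0.16 in xNMJ, with 18 and 27 of 35 below 0, and that of all genes was 0.020 and 0.040. In NMJ the values ran from -0.51 for Slc16a3 to 1.03 for Fbp2, each with an adjusted p of 0.9998 (edgeR). In xNMJ they ran from -0.86 for Pgam1 (adjusted p = 0.38) to 0.46 for Fbp2 (adjusted p = 0.84). Ugp2 and Pfkm had -0.41 (SE 0.15, adjusted p = 0.37) and -0.31 (SE 0.12, adjusted p = 0.4) in xNMJ, the smallest adjusted p of the 35 genes being 0.374. The xNMJ TPM ranges of Pfkm, given above, overlapped between the ages.

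**Figure D5:**
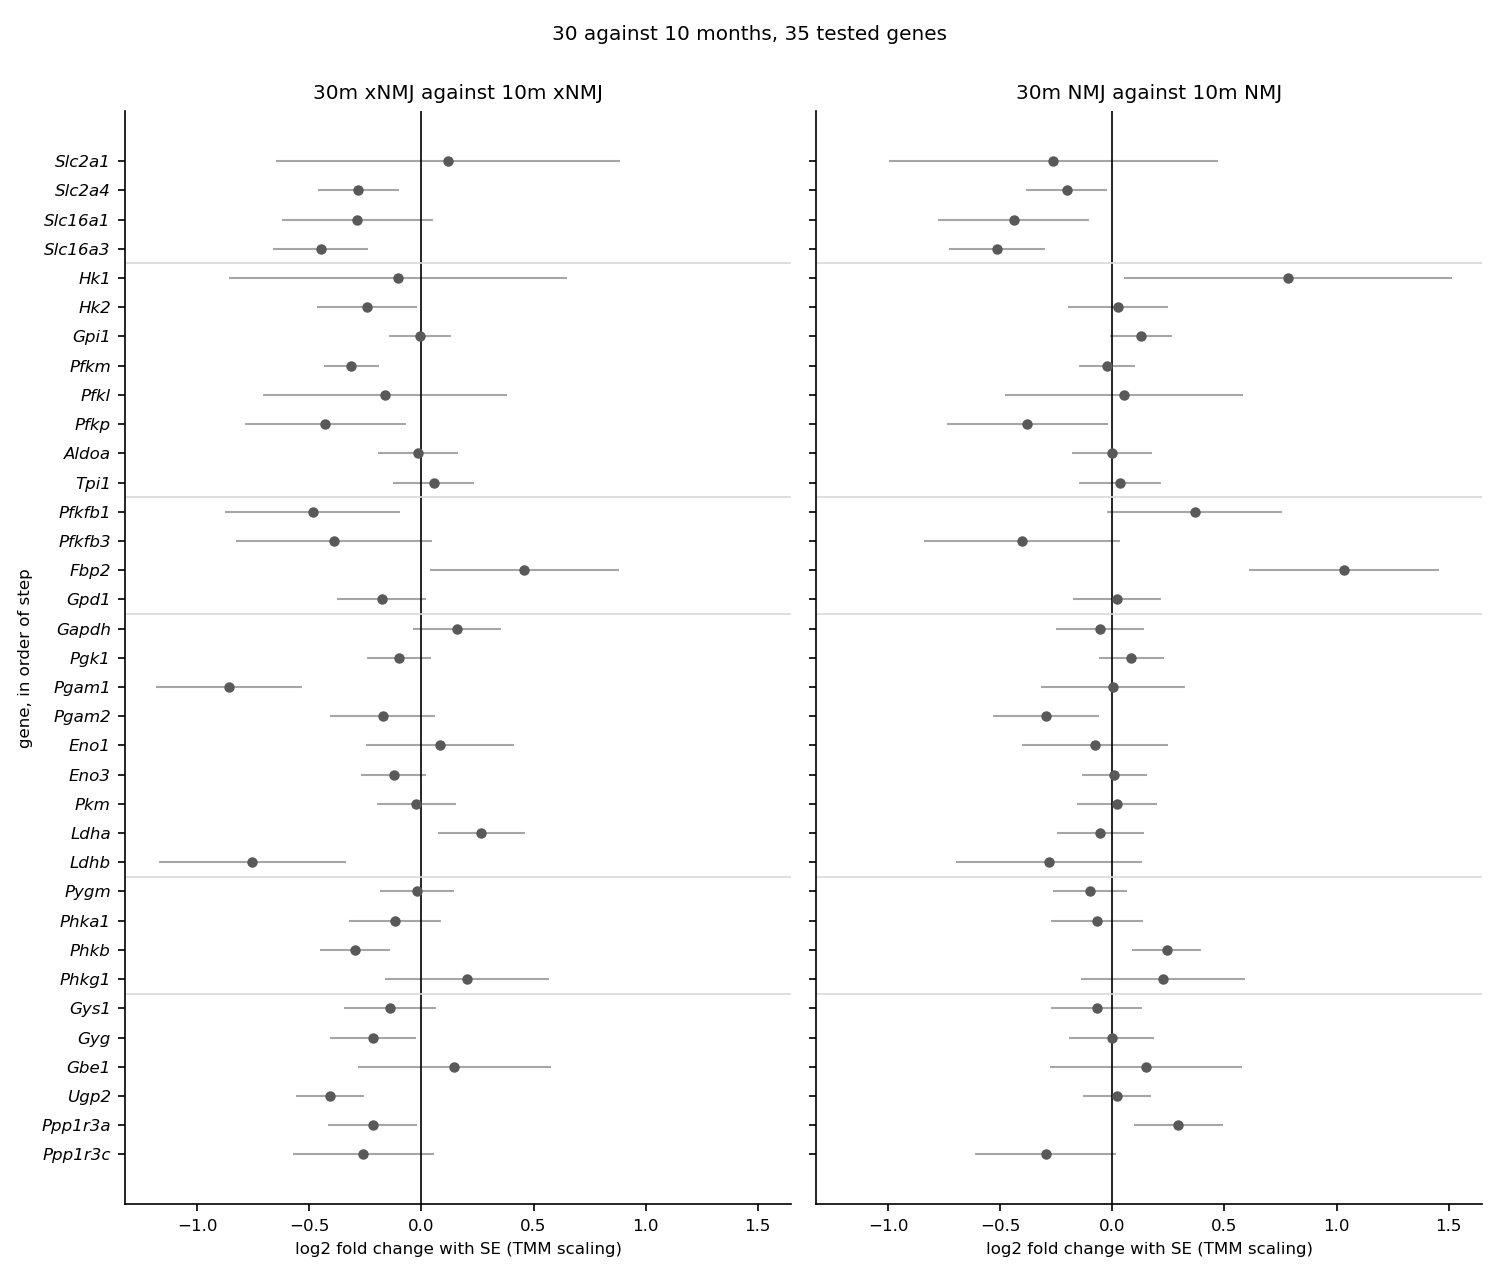
Log2 fold change of 30m against 10m with its SE (TMM scaling, edgeR) for the 35 tested genes in order of step, in xNMJ (left) and NMJ (right). No gene passed the adjusted threshold in either region, and the widest lines belong to Slc2a1, Hk1 and Pfkl, which lie near 1 TPM.

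The interaction of age and region, the difference of the NMJ against xNMJ change between 30m and 10m mice, was called for 0 of 35 genes and 0% of all genes in either direction (edgeR), with 1 member (2.86%), Phkb, at an unadjusted p under 0.05, against 5.06% of all genes, and DESeq2 and limma called 0 members. Its values ran from -0.38 for Slc2a1 to 0.89 for Hk1 with a median of 0.071. Both are low genes, and at this depth 3 counts correspond to 0.182 to 0.745 CPM. For Slc2a4, with 8 libraries a group, the interaction was 0.078 (SE 0.25, adjusted p = 0.9999), so its 95% interval of -0.42 to 0.58 leaves room for a difference in either direction.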

How the data were processed

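RNA was measured in 32 libraries of 4 groups. Per the labels and the study's methods, the authors trimmed reads with Cutadapt 1.9.1 and mapped them to the mouse transcriptome with kallisto 0.43.1 (versions from the submitters' processing notes, build GRCm38), and a read that fit n transcripts added 1/n to each. The deposited tables hold whole-number counts per gene, which may be rounded (not stated), and TPM. Libraries are unstranded, so a gene and its antisense partner cannot be told apart. Totals of 4026648 to 16516788 counts limit the precision of low genes, with 3 counts equal to 0.182 to 0.745 CPM (counting error only). No 2 libraries of a group were alike within sampling noise in 112 pairs.

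The members and all gene lists were chosen with earlier results of these data known. Genes at 1 CPM or more in at least 8 libraries (13990) were fitted with edgeR 4.0.16 (quasi-likelihood test, TMM, 4 groups in 1 fit), and p-values were adjusted over all of them by Benjamini-Hochberg at 0.05. SE is the log2 fold change divided by the square root of F. The fit was tested on simulated data in which most genes were alike in all groups. That test does not bear on the choice of scaling. Alternatives were DESeq2 1.42.0, DESeq2 size factors or library totals in edgeR, no filter, only the groups compared, the replicate number as a block, insert size as a covariate, leaving out 30m xNMJ replicate 5 or 10m NMJ replicate 8, limma 3.58.1 on log2(TPM + 1) and log2(TPM + 0.1), which understates changes of low genes, and, chosen after seeing the data, scaling to 6 fibre genes. Values of all groups are given for up to 6 genes by adjusted p in each comparison and direction and for the most abundant gene of each step, and every other member is named. Hk2, Pfkfb1, Ldhb, Pkm and Pygm, also given in full, were chosen after their values were seen. Positions are from GENCODE M21 and promoters from RefSeq GRCm38.p6. A second identifier named Aldoa, with at most 0.859 TPM, was not used. Some genes of the lists are not reported here.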

Additional observations from a re-analysis of the deposited data

Results flagged for a closer look

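In 152 sets of 8 libraries (each gene or sum in each group), 13 held a library set apart from the other 7 by more than Dixon's criterion, and chance would give about 1 in 20 sets, or 7.6. The flagged genes exceed the criterion on log2(TPM + 1), and the sum does so in percent of TPM. On TPM itself some of them, such as Tpi1 and Gyg, do not, whereas Aldoc in 10m NMJ, with 12.6 TPM in replicate 4, does. Values below are in TPM. 30m NMJ replicate 5 was set apart 3 times, and was the lowest each time: Tpi1 had 867 TPM there (1500 to 2200 in the others), Gpd1 had 19.0 TPM (38.2 to 61.9) and Phkg1 had 441 TPM (2060 to 3990). 30m xNMJ replicate 5, the library with a raised synaptic sum, was low in Phkg1 with 825 TPM (3800 to 10200). In 30m xNMJ replicate 4, Hk2 was high at 635 TPM (171 to 305) and Aldoc at 0.712 TPM (0 to 0.229). In 30m xNMJ replicate 1, Hk1 was high at 2.7 TPM (0.036 to 0.787) and Gyg low at 69.3 TPM (139 to 218). Pgam1 was low in 30m xNMJ replicate 2 at 2.11 TPM (7.65 to 17.3). In 10m xNMJ replicate 7, Ldhb was low at 72.0 TPM (295 to 605) and the sum of 35 genes without Phkg1 was high at 3.87% of TPM (2.11% to 2.91%). Fbp2 was low in 10m xNMJ replicate 5 at 13.3 TPM (28.4 to 40.7), and Eno3 in 10m NMJ replicate 1 at 2770 TPM (3710 to 4120). The causes were not tested.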

How the results depend on the processing

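The main counts of 20 and 14 members lower in 10m and 30m NMJ became 21 and 17 with DESeq2, 19 and 14 with its size factors in edgeR, 15 and 11 without a filter, 20 and 13 with only the groups compared, and 20 and 16 with insert size as a covariate. Without 30m xNMJ replicate 5 they were 20 and 13, and without 10m NMJ replicate 8 they were 19 and 14. Under these settings 434 to 814 of all genes were lower in 10m mice and 490 to 769 in 30m mice. All genes were 24167 without a filter and 13990 otherwise. The genes that lost their call without a filter were Slc16a1, Gpi1, Fbp2, Gpd1 and Eno3 in 10m mice (edgeR adjusted p of 0.081, 0.10, 0.053, 0.056 and 0.051) and Pgam2, Phka1 and Ppp1r3a in 30m mice (0.091, 0.070 and 0.076). Under the other settings named so far, the calls lost were Slc16a1 in 10m mice with the size factors (0.062) and without replicate 8 (0.093), Phka1 in 30m mice with only the groups compared (0.070), Pgam2 in 30m mice without replicate 5 (0.093), and Fbp2 and Phkg1 in 10m mice with insert size (0.076 and 0.085). The counts became 5 and 1 with library totals, 1 and 0 with the fibre scaling, and 9 and 0 with limma on TPM at either pseudocount. Members called higher, 0 and 0 at first, became 2 and 4 with totals, 6 and 8 with the fibre scaling, 2 and 5 with log2(TPM + 1) and 3 and 5 with log2(TPM + 0.1). Of all 13990 genes, log2(TPM + 1) called 237 and 60 lower and 2681 and 3501 higher. With log2(TPM + 0.1) it was 228 and 54 lower and 2786 and 3627 higher. Without a filter 1 was higher in 10m mice, namely Aldoc, with 0 TPM in each 10m xNMJ library and 0.136 to 12.6 TPM in 10m NMJ. With insert size 1 was higher in 30m mice. The median of all genes also moved, to 0.56 and 0.61 with totals, 0.78 and 0.80 with the fibre scaling and 0.37 and 0.49 with log2(TPM + 1). Below it lay 31 and 29, 29 and 28, and 30 and 27 of the 35 genes. Counts for age and for the interaction were 0 wherever they were tested. With only the groups compared the interaction was not fitted, and the replicate block covered fewer comparisons than the other settings. Counting genes called before or after the change, the sign turned in 33 cases, all above 0 after it. As these scalings also moved the median of all genes up, a turned sign does not show a change relative to the other genes. With totals these were Gpi1 0.087, Eno3 0.0054 and Pkm 0.52 in 10m mice and Pfkm 0.00014, Pgk1 0.011 and Gyg 0.58 in 30m mice. With limma on TPM, at both pseudocounts, they were Gpi1 0.043, Eno3 0.027 and Pkm 0.49 in 10m mice and Gyg 0.62 in 30m mice. With the fibre scaling they were, in 10m mice, Gpi1 0.33, Aldoa 0.15, Gpd1 0.11, Gapdh 0.49, Eno3 0.26, Pkm 0.81, Ldha 0.79, Phka1 0.045 and Gyg 0.55, and, in 30m mice, Gpi1 0.49, Pfkm 0.18, Aldoa 0.18, Pgk1 0.18, Pgam2 0.11, Eno3 0.41, Phka1 0.087, Gyg 0.81, Ugp2 0.17 and Ppp1r3a 0.13.

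Replicate numbers are shared across groups but were not taken to pair the libraries, since not every same-numbered pair had a correlation over 0.1. Of 16 same-numbered pairs, correlations of deviations ran from -0.018 to 0.37 and 5 were above 0.1. Of 32 libraries, each set against the 8 of the other region at its age, 16 correlated best with their own number (1 in 8, or 4, would by number alone). That is a hint of pairing from the data, which the labels do not state. If the libraries are paired, the main p-values leave the pairing out. With the replicate block, 23 and 18 members were lower in 10m and 30m NMJ and 1 was higher in 30m mice. The block added 8 calls and ended none, so some genes given above as not called pass with it. Of the added calls only that of Hk1 is given above, and the others are not reported here. DESeq2 added 4 calls and insert size as a covariate 5, of which likewise only that of Hk1 with insert size is given.

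The 8 libraries per group bound the precision of each value, genes near 1 TPM such as Hk1, Slc2a1 and Pfkl rest on few counts, and a gene that missed the threshold is not shown to be equal between groups.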

Other observations

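Among the genes outside the members, Eno1b, a gene so close to Eno1 that 51.8% of the 31-base words of Eno1 are shared with it, was the one near copy abundant enough to test. Its log2 fold changes of NMJ against xNMJ were -0.35 in 10m mice and -0.31 in 30m mice (TMM), and neither was called (edgeR, adjusted p = 0.59 and 0.66). Reads of Eno1 and Eno1b may therefore be divided between the 2 genes, and the sum of both was not analysed. Of Pfkp, 15.9% of the words are shared with Pitrm1, and of Pygm, 1.34% with Pygb.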
